A study of Mus musculus with 15 samples.

Results

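The 10 circadian clock genes Arntl, Clock, Npas2, Per1, Per2, Per3, Cry1, Cry2, Nr1d1 and Dbp were followed through single-cell RNA sequencing of the mouse prefrontal cortex (PFC). They were taken by symbol from the 26145 genes in the count files, and each symbol was listed once. Cells of male C57BL/6N mice had been captured in droplets (10X Genomics) in 15 libraries. The methods describe each library as a pool of the PFC of 2 mice. The 12 adult libraries (P60; 8 to 10 weeks in the labels) came from mice that self-administered saline or cocaine through a jugular catheter, and they were collected in the maintenance phase, after 48 h of withdrawal or after 15 days of withdrawal, with 2 libraries for each treatment at each time point. The other 3 libraries came from mice at P21 (3 weeks), which had no training, catheter or self-administration, so age and these procedures cannot be told apart. The methods give fewer P21 mice than 3 pools of 2 mice need. The P21 libraries may therefore share mice, while the tests below count the 3 as separate. The labels name the nucleus accumbens in the tissue field and the PFC elsewhere.

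The P60 libraries are named here by their numbers: saline libraries 2 and 3 and cocaine libraries 1 and 4 in maintenance, saline libraries 5 and 7 and cocaine libraries 6 and 8 at 48 h, and saline libraries 11 and 12 and cocaine libraries 9 and 10 at 15 days. The mice lived under a light/dark cycle, and the time of day at which each was killed is not given in the sources used here. The retained P60 cells numbered 24822, and the retained cells of a P60 library held 8375172 to 42892922 unique molecular identifiers (UMIs, 1 per captured transcript). The 4 libraries of 15 days held the most UMIs, at least 27704573 each, against at most 20336658 in the other P60 libraries. Any pair of libraries shared at most 40 cell barcodes, or 1.0% of the smaller library. The class of a cell was taken from the name of its deposited cluster, and the separate deposited class column served as an alternative. All 3 defining markers of each of the 8 classes lay above every other class in its libraries, with the following exceptions. Snap25 in inhibitory neurons lay below excitatory neurons, and Gpr17 in oligodendrocyte precursors (OPC) below newly formed oligodendrocytes. Neu4 in newly formed oligodendrocytes had a range at P60 that met that of the precursors.

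The mammalian clock is a transcriptional feedback loop. ARNTL (BMAL1) pairs with CLOCK or its paralog NPAS2 and drives E-box genes, among them the Per and Cry genes, whose proteins return to block the pair. NR1D1 (REV-ERBα) represses Arntl in a second loop, and DBP, a PAR bZIP factor, carries the rhythm to D-box genes. The loop runs in most cells of the body, in the brain outside the suprachiasmatic nucleus as well, and its transcripts rise and fall over the day.

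These sequence elements are shown in the promoters of 4 of the genes whose windows held a match, where each element is spelled in capitals and the rest in lower case. The windows run 5′ to 3′ on the strand of the gene, from 250 bases before to 50 after a RefSeq transcription start, on GRCm38.p6, a later build than the mm9 (NCBIM37) to which the reads were aligned. RefSeq windows were found for 9 of the 10 genes, all but Per2, 13 windows in all. Per1 at chr11:69098699-69098998 (plus strand) holds the E-box CACGTG 166 bases before the start. Cry1 at chr10:85185005-85185304 (minus strand) holds the E-box 60 bases before the start and the variant AACGTG 79 bases before it. Per3 at chr4:151044616-151044915 (minus strand) holds the D-box TTATGTAA at 205 and at 158 bases before the start. The second Arntl window, at chr7:113207261-113207560 (plus strand), holds TAGGTCA, letters of the element bound by ROR and REV-ERB proteins, 30 bases after the start.
Per1: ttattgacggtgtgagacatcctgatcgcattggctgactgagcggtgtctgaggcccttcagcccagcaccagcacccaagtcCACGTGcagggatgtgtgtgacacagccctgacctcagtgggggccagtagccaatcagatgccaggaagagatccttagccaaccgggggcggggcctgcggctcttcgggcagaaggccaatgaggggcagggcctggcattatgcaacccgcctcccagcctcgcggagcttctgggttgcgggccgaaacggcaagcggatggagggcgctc
Cry1: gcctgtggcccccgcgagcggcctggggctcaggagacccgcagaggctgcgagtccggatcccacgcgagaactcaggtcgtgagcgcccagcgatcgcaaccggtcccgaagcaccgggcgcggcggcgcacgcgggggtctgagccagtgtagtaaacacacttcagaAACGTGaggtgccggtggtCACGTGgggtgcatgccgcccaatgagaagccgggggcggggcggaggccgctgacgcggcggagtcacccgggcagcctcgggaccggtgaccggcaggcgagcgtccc
Per3: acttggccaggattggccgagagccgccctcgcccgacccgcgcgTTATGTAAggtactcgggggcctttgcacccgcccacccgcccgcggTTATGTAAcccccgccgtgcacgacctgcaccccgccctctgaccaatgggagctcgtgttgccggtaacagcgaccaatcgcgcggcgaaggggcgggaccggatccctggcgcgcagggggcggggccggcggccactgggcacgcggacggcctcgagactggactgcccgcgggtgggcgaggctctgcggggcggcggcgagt
Arntl: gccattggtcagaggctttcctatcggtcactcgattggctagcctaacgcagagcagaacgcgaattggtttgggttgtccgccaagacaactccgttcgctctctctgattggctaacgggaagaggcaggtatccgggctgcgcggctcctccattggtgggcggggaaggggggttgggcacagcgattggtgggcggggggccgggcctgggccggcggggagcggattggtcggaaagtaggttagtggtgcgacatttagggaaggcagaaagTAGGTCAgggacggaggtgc

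AACGTG also stood 166 bases before the start of Cry2 and 28 bases before that of Nr1d1. Both strands were searched for the E-box CACGTG, for its variant CACGTT, which reads AACGTG on the other strand, for the D-box TTATGTAA, for TAGGTCA and for the cyclic AMP response element TGACGTCA, and no match overlapped another. Of all 32851 windows of this length, 7.15% held the E-box, 4.68% its variant, 0.938% the D-box and 2.61% the letters TAGGTCA. The cyclic AMP response element was in 1.79% of them and in none of the 13 windows of the clock genes. No element searched was found in any window of Clock, Npas2 or Dbp, in the first window of Arntl or in the second of Per1. A match is a description of letters in the window and not a site shown to be bound.

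Levels are given in CPM: the UMIs of a gene summed over the cells of a class in a library, scaled to the sum over all genes of that class and library without mitochondrial and ribosomal protein genes. Libraries that held under 10 cells of a class do not enter its values. The study made the clusters behind these classes from the same cells, so the levels by class are described and not tested. They are compared between classes for 1 gene at a time.

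The activator genes were highest in excitatory neurons. Arntl lay at 13.6, 15.1 and 17.9 CPM (lowest, median and highest of 12 P60 libraries, mean 15.5 ± 1.48, SD) in excitatory neurons. Inhibitory neurons came next with 8.24 ± 4.74 CPM and excitatory neurons lay above them in 11 of 12 libraries, while the lower classes, down to 1.88 ± 3.48 CPM in mature oligodendrocytes, followed each other by less than their SD. Clock, a histone acetyltransferase as well as the partner of ARNTL, was more even over the classes. It lay at 24.9, 26.7 and 31.9 CPM in excitatory neurons, with a mean of 27.3 ± 2.42 CPM. Endothelial cells had 23.3 ± 5.46 CPM, less than 1 SD below, and no class differed from its neighbour in the order by more than the SD, down to 9.67 ± 4.57 CPM in astrocytes. Npas2 lay at 9.42, 11.4 and 16.1 CPM in excitatory neurons, a mean of 12.2 ± 2.27 CPM. Astrocytes came next with 8.05 ± 5.45 CPM, below excitatory neurons in 8 of 11 libraries, and endothelial cells were lowest with 0.69 ± 0.74 CPM.

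**Figure D1:**
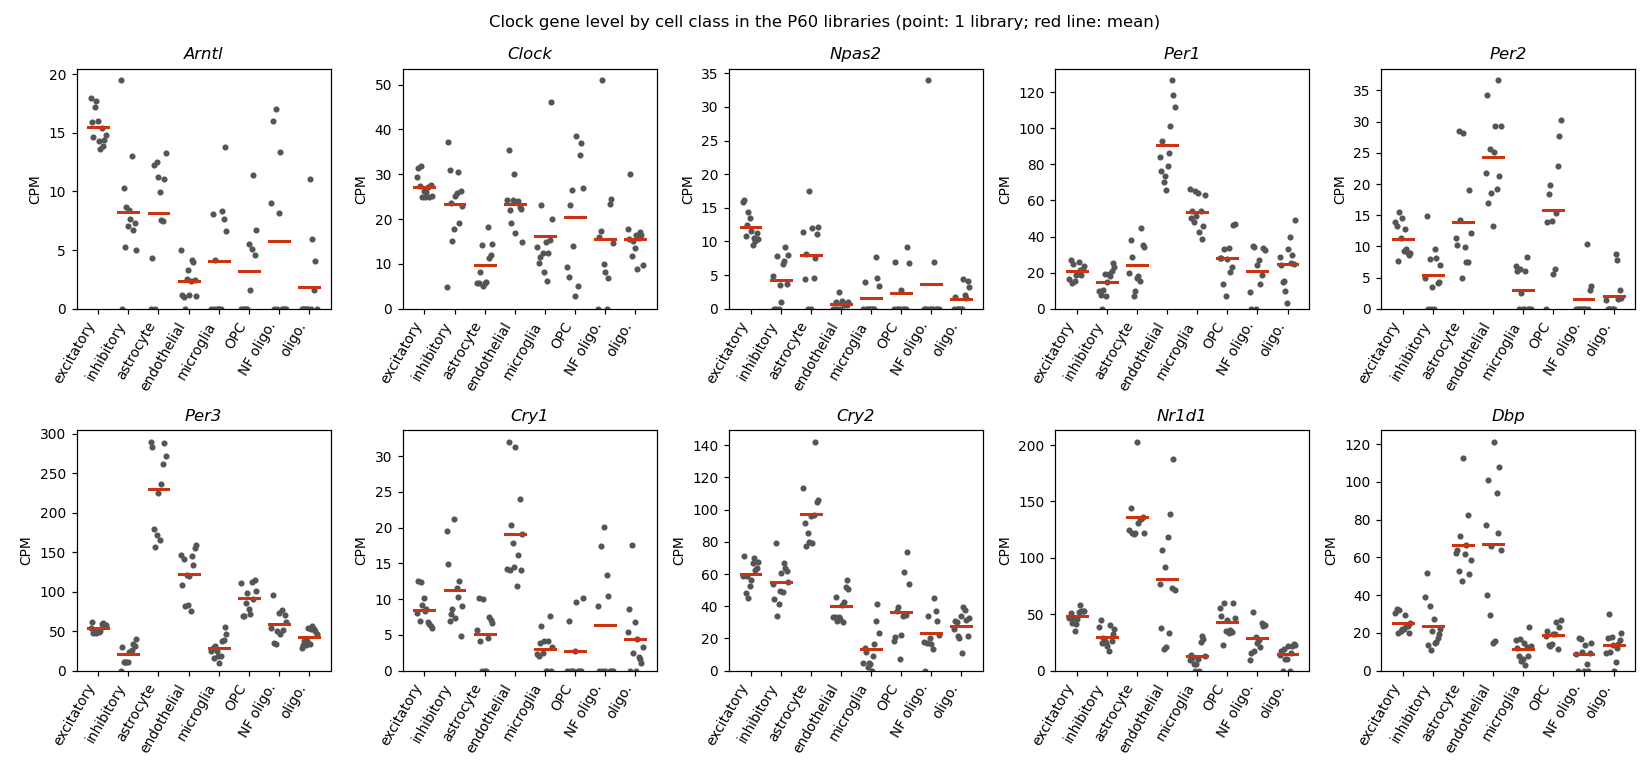
Level of each clock gene in CPM (y axis, linear) in the 8 cell classes (x axis) of the P60 libraries; each point is 1 library and the red line is the mean over 11 or 12 libraries. Arntl, Clock and Npas2 have their highest means in excitatory neurons, and every other gene in endothelial cells or astrocytes.

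The period genes, whose products hold the activators back in complex with the cryptochromes, were highest outside neurons. Per1, which also responds quickly to light and to hormones, lay at 65.6, 85.1 and 126.7 CPM in endothelial cells, a mean of 90.5 ± 19.9 CPM. Microglia came next with 53.7 ± 9.28 CPM, below endothelial cells in 12 of 12 libraries, and the precursors followed with 27.98 ± 12.1 CPM. Excitatory neurons had 20.6 ± 4.23 and inhibitory neurons 14.6 ± 7.67 CPM, and from the precursors down no class differed from the next by more than the SD. Per2 lay at 13.3, 23.5 and 36.7 CPM in endothelial cells, a mean of 24.3 ± 7.08 CPM, which lay above the 15.9 ± 9.34 CPM of the precursors by less than their SD and in 7 of 11 libraries. Excitatory neurons, with 11.2 ± 2.71 CPM of Per2, lay above inhibitory neurons (5.36 ± 4.44 CPM) in 11 of 12 libraries.

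Per3 differed between neighbouring classes by more than the SD at 5 of 7 steps. In astrocytes it lay at 157.0, 236.2 and 289.7 CPM over 11 libraries, a mean of 230.1 ± 53.1 CPM, above endothelial cells (122.6 ± 29.6 CPM) in 11 of 11. Precursors with 91.4 ± 17.7 CPM and newly formed oligodendrocytes with 59.0 ± 18.8 CPM followed, each step larger than the SD. Excitatory neurons had 53.8 ± 5.23 CPM, less than 1 SD below newly formed oligodendrocytes, and mature oligodendrocytes had 43.0 ± 10.2, microglia 29.1 ± 13.4 and inhibitory neurons 20.8 ± 12.2 CPM.

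The cryptochrome genes, light-independent repressors in mammals, did not share 1 order. Cry1 was highest in endothelial cells, at 11.9, 17.0 and 32.0 CPM with a mean of 19.1 ± 6.73 CPM, above inhibitory neurons (11.2 ± 5.06 CPM) in 10 of 12 libraries. Cry2 was highest in astrocytes, at 77.5, 95.8 and 142.1 CPM with a mean of 97.6 ± 18.9 CPM. Its range there did not overlap that of excitatory neurons, which came next with 60.1 ± 8.39 CPM and lay above inhibitory neurons (54.9 ± 12.4 CPM) by less than the SD. Microglia had the least Cry2, 13.6 ± 12.6 CPM.

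Nr1d1 and the output gene Dbp were high in astrocytes and spread widely over the libraries in endothelial cells. Nr1d1 lay at 121.3, 131.3 and 202.8 CPM in astrocytes, a mean of 136.0 ± 23.4 CPM. In endothelial cells it ran from 19.2 over a median of 75.3 to 187.9 CPM, a mean of 81.5 ± 51.1 CPM that lay below astrocytes in 9 of 11 libraries. Excitatory neurons had 48.1 ± 6.34 CPM of Nr1d1 and microglia, the lowest class, 12.8 ± 10.1 CPM. Dbp had 66.99 ± 35.9 CPM in endothelial cells, from 14.5 over 69.2 to 121.2 CPM, and 66.5 ± 18.1 CPM in astrocytes, from 47.5 over 62.5 to 112.7 CPM. These means did not differ beyond their spread, while astrocytes lay above excitatory neurons (25.2 ± 4.76 CPM of Dbp) in 11 of 11 libraries with no overlap.

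Each of Nr1d1, Dbp and Cry2 overlaps a gene on the opposite strand in the mm9 annotation. Nr1d1 (chr11:98629246-98636647, minus strand) shares 263 exonic bases with Thra, the thyroid hormone receptor alpha gene, Dbp (chr7:52960458-52965525, plus strand) shares 491 with the sphingosine kinase gene Sphk2, and Cry2 (chr2:92243803-92274200, minus strand) shares 295 with D930015M05Rik. Whether reads were counted by strand is not given in the sources used here, and without strand the reads of overlapping genes cannot be told apart.

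P21 mice were compared with the 6 saline P60 libraries to ask which genes differ between the young and the adult PFC. Excitatory neurons held on average 7244–10843 UMIs per cell in the P21 libraries and 11569–15557 in the P60 libraries. Age and depth therefore cannot be told apart in this class. The time of day of killing is not given for either age, so age and time of day cannot be told apart in any class. In edgeR's quasi-likelihood test with Benjamini-Hochberg adjustment over all genes of a class, calls needed an adjusted p below 0.05 together with a difference of over 1.5-fold. Of 34 tests of a clock gene in a class that passed the filter on low counts, 9 were called and all 9 were higher at P60. Over all genes of the same 7 classes 11.9% of tests were called, and 4.94% were called higher at P60. In endothelial cells 3 of 8 tested clock genes were called (12.7% of all genes), in inhibitory neurons 3 of 6 (14.0%), in excitatory neurons 2 of 10 (19.3%) and in mature oligodendrocytes 1 of 3 (17.8%). None was called among 5 in astrocytes (1.11% of all genes), 1 in microglia (0.726%) and 1 in newly formed oligodendrocytes (1.94%), and the P21 libraries held too few precursors for a test. At an unadjusted p below 0.05 there were 16 of 34, beside 31.1% of the tests over all genes. DESeq2 called 8, without Dbp and Per3 in inhibitory neurons, so not all of its calls are among the 9. The share of all genes that DESeq2 called is not given here.

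The 3 genes called in endothelial cells were repressors, Cry1, Per3 and Per2. Cry1 lay at 3.0, 5.5 and 7.3 CPM in P21 libraries 1, 2 and 3, and at 14.0, 18.5 and 32.0 CPM (lowest, median and highest) in the 6 saline P60 libraries. The groups did not overlap, and the difference was 1.84 on the log2 scale (SE 0.36, adjusted p = 0.00263 by edgeR). Per3 lay at 43.0, 70.5 and 70.6 CPM at P21 and at 108.5, 131.2 and 159.4 CPM at P60, again without overlap, with a log2 fold change of 1.00 (SE 0.18, adjusted p = 0.00124 by edgeR). Per2 lay at 1.8, 12.6 and 8.9 CPM at P21 and at 17.0, 23.2 and 34.3 CPM at P60. Every P60 library lay above the P21 libraries, and the log2 fold change was 1.53 (SE 0.45, adjusted p = 0.0411 by edgeR). The endothelial calls of Cry1 and Per3 were kept without any 1 of the 9 libraries, and that of Per2 was lost without P60 library 2, 5, 7, 11 or 12 or P21 library 3, with log2 fold changes from 1.01 to 2.098 and adjusted p from 0.0166 to 0.102 over the 9 fits by edgeR. The call of Per2 was also lost with no filter on low counts (adjusted p = 0.0697 by edgeR), with P21 libraries 2 and 3 summed (0.0634) and with the saline libraries of maintenance as the sole P60 libraries (0.229).

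The clock genes that were not called in endothelial cells gave estimates in both directions. Dbp had a mean of 83.3 ± 31.4 CPM at P60 and 36.8 ± 7.17 CPM at P21 (log2 fold change 1.04, SE 0.32, adjusted p = 0.0549 by edgeR), and Nr1d1 had 102.4 ± 50.7 and 59.8 ± 20.6 CPM (0.64, SE 0.43, adjusted p = 0.378 by edgeR). Clock was estimated lower at P60, with a mean of 28.5 ± 1.52 CPM at P21 and of 22.6 CPM at P60, and the groups overlapped (−0.51, SE 0.21, adjusted p = 0.115 by edgeR). Per1 gave 0.17 (SE 0.17) and Cry2 0.23 (SE 0.19), and neither passed. Arntl fell under the filter on low counts, with 17.0 CPM in P21 library 1, 2.5 and 4.5 CPM in P21 libraries 2 and 3, and 1.56 ± 0.72 CPM at P60 (n = 6). P21 library 1 stood apart from the other P21 libraries in endothelial cells: it had the most Arntl and Nr1d1 and the least Per1, Per2, Per3, Cry1, Cry2 and Dbp of the 3. Oligodendrocyte markers summed to 207–243 CPM in the endothelial cells at P21 and 431–561 CPM at P60, astrocyte markers to 204–256 and 52.8–219.3 CPM, microglial markers to 37.7–137.2 and to 56.9 CPM or less, with none of these markers at 0; their part in the result was not tested. Endothelial markers themselves summed to 6648–11977 and 8411–10936 CPM.

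**Figure D2:**
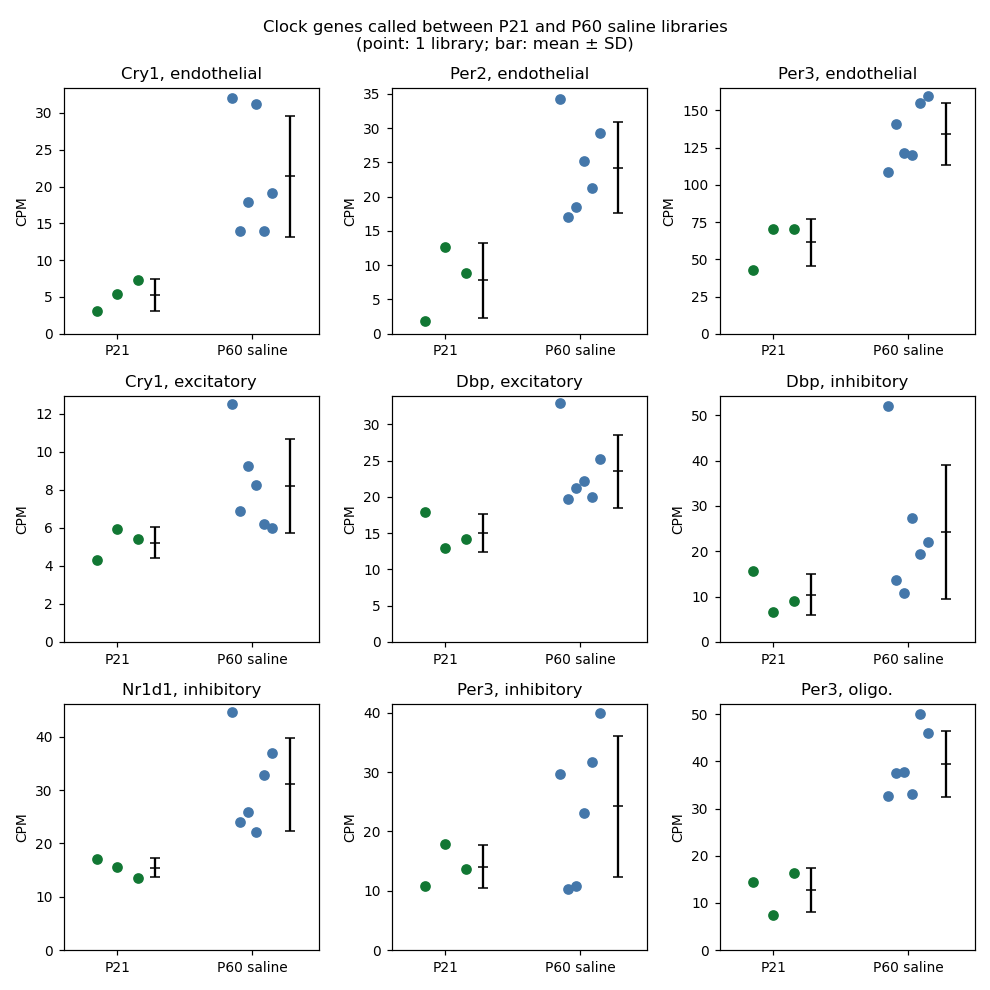
Level in CPM (y axis, linear, from 0) of the 9 clock gene and class pairs called between age groups, in the 3 P21 and the 6 saline P60 libraries (x axis); each point is 1 library and the bar is the mean ± SD. The P60 mean is higher in each panel, and the groups overlap for Per3 and Dbp in inhibitory neurons.

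In excitatory neurons Dbp and Cry1 were called higher at P60, while Clock and Per1 were lower by less than 1.5-fold. Dbp lay at 17.9, 12.9 and 14.1 CPM at P21 and at 19.7, 21.6 and 32.9 CPM at P60, without overlap (log2 fold change 0.68, SE 0.16, adjusted p = 0.00427 by edgeR). Cry1 lay at 4.3, 5.9 and 5.4 CPM at P21 and at 6.02, 7.58 and 12.5 CPM at P60, also without overlap though by a narrow margin (0.67, SE 0.22, adjusted p = 0.0284 by edgeR). The call of Dbp was lost without P21 library 2, where the log2 fold change of 0.58 was under 1.5-fold. That of Cry1 was lost without P60 library 2, 5 or 7 or P21 library 1 or 3, with adjusted p up to 0.113.

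Changes under 1.5-fold passed the adjusted p for 3 more genes in excitatory neurons, which made 5 of 10 past the adjusted p at any fold, beside 40.4% of all genes. Nr1d1 had 32.0, 34.1 and 34.6 CPM at P21 and 35.3, 48.5 and 52.7 CPM at P60 (log2 fold change 0.54, SE 0.11, adjusted p = 0.00203 by edgeR). Clock was lower at P60, with 34.5, 32.0 and 36.9 CPM at P21 and 24.99, 26.3 and 31.3 CPM at P60, without overlap (−0.30, SE 0.09, adjusted p = 0.0198 by edgeR). Per1 was lower as well, with means of 20.2 ± 4.97 CPM at P60 and 27.9 ± 1.83 CPM at P21, and the groups overlapped (−0.41, SE 0.15, adjusted p = 0.0443 by edgeR). Thra, which shares bases with Nr1d1, went the other way from it, with 286.8 ± 20.9 CPM at P60 and 455.6 ± 37.1 CPM at P21.

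The remaining members in excitatory neurons gave log2 fold changes of −0.05 for Arntl and Per2, −0.08 for Npas2, −0.06 for Cry2 and 0.22 for Per3 (adjusted p = 0.0704 for Per3 by edgeR). The median over the 10 genes was −0.05, against 0.00 over all genes tested. Endothelial markers summed to 31.0–73.5 CPM in excitatory neurons at P21 and 5.15–25.4 CPM at P60, astrocyte markers to 34.0–77.5 and 60.9–132.5 CPM, with none at 0, and their part was not tested. The 10 immediate early genes, which neuronal activity and tissue handling induce, summed to 1021–1107 CPM at P21 and 411–615 CPM at P60 in these cells. Of the 10, 6 were called lower at P60. Over all genes of this class 19.3% were called in either direction, and 1083 of those 2559 were higher at P60.

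Inhibitory neurons and mature oligodendrocytes had fewer cells and fewer tested members. Nr1d1 lay at 17.1, 15.6 and 13.6 CPM in inhibitory neurons at P21 and at 22.0, 29.4 and 44.5 CPM at P60, without overlap (log2 fold change 0.94, SE 0.22, adjusted p = 0.00679 by edgeR), and the call was kept in all 9 fits that left out 1 library but lost with the saline libraries of maintenance as the sole P60 libraries (adjusted p = 0.27 by edgeR). Dbp had means of 24.2 ± 14.8 CPM at P60 and 10.4 ± 4.58 CPM at P21 (0.99, SE 0.33, adjusted p = 0.045 by edgeR) and Per3 24.3 ± 11.9 and 14.1 ± 3.58 CPM (0.92, SE 0.30, adjusted p = 0.0367 by edgeR). Both overlapped between the age groups, and DESeq2 called neither. The call of Dbp was lost without P60 library 2, 7, 11 or 12 or P21 library 2 or 3 (adjusted p up to 0.164), and that of Per3 without P60 library 7, 11 or 12 or P21 library 1 or 3 (up to 0.117). The call of Dbp was also lost with at least 30 cells per library (adjusted p = 0.0606 by edgeR), and that of Per3 with the deposited class column (0.0512) and with all 12 P60 libraries (0.0745). Neither was called with P21 libraries 2 and 3 summed (adjusted p = 0.116 for Dbp and 0.0665 for Per3 by edgeR) or with the saline libraries of maintenance as the sole P60 libraries, where the log2 fold changes were 1.29 and 0.24. The other tested genes were not called, with log2 fold changes of −0.13 for Clock, 0.02 for Per1 and 0.15 for Cry2. Astrocyte markers summed to 67.5–115.6 CPM in inhibitory neurons at P21 and 109.9–391.7 CPM at P60, and their part was not tested.

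Per3 in mature oligodendrocytes lay at 14.5, 7.5 and 16.3 CPM at P21 and at 32.7, 37.6 and 50.02 CPM at P60, from 39 and 122 UMIs in all. The groups did not overlap, and the log2 fold change of 1.51 (SE 0.29, adjusted p = 0.00115 by edgeR) was called without any 1 library but not with the saline libraries of maintenance as the sole P60 libraries (adjusted p = 0.0929 by edgeR). Markers of newly formed oligodendrocytes summed to 181.7–209.8 CPM in these cells at P21 and 59.1–157.6 CPM at P60, and their part was not tested. In astrocytes, where Per3 was highest, its means were 245.4 ± 55.4 CPM at P60 (n = 5) and 158.6 ± 64.7 CPM at P21 (n = 3), a log2 fold change of 0.75 (SE 0.26) that did not pass (adjusted p = 0.196 by edgeR). The other genes tested in astrocytes gave 0.60 for Cry2, 0.08 for Nr1d1, 0.03 for Dbp and −0.23 for Per1. Per1 in microglia gave 0.92 (adjusted p = 0.436 by edgeR) and Per3 in newly formed oligodendrocytes 0.51 (adjusted p = 0.429 by edgeR), and Per1 and Cry2 in mature oligodendrocytes gave −0.06 and 0.23.

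Of 19 further clock genes, listed as regulators and outputs of the loop, 13 of 78 tests were called between the ages, and all 13 were higher at P60, beside the 11.9% of all genes called in these classes and the 4.94% called higher at P60. In endothelial cells these were Hlf and Tef, relatives of Dbp, Bhlhe41, a repressor of E-box genes, and Timeless. Hlf had the lowest adjusted p, with 92.9 CPM at P60 and 30.2 CPM at P21 (log2 fold change 1.49, adjusted p = 2.47e-05 by edgeR). Excitatory neurons had Rora and Rorb, nuclear receptors that activate Arntl, at 0.61 and 0.95, and Timeless at 0.87. In inhibitory neurons Bhlhe40, Gm129 (Ciart) and Hlf were called, and in mature oligodendrocytes Bhlhe41, Tef and Gm129.

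The excitatory neurons were deposited in 26 clusters, in which levels at P60 are described without a test. Npas2 ranged from 1.96 ± 2.46 CPM in cluster 21 to 21.4 ± 7.52 CPM in cluster 24, and Per3 from 10.2 ± 3.38 CPM in cluster 26 to 104.1 ± 24.5 CPM in cluster 20. Nr1d1 went from 14.7 ± 8.53 CPM in cluster 21 to 80.1 ± 20.8 CPM in cluster 23. Cluster 21 also had the lowest mean of Per2, Cry2 and Dbp. Cry2 ran from 38.7 ± 15.5 to 86.2 ± 16.6 CPM and Dbp from 13.7 ± 5.85 to 37.1 ± 19.1 CPM. The lowest and the highest cluster differed by less than the larger SD for Clock (20.1 ± 7.59 and 39.1 ± 19.3 CPM) and for Per1 (13.6 ± 4.40 and 27.7 ± 17.8 CPM).

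Within clusters, P21 and P60 saline libraries were compared in the same way. Of 153 tests of a clock gene in a cluster 13 were called, in 10 clusters, against 11.3% of the tests over all genes. With at least 30 cells per library, 4 of 127 tests were called, and the share over all genes at that setting is not given here. Of the 13 calls 9 could then be tested and 3 were kept, those of Nr1d1 in clusters 14 and 25 and of Per1 in cluster 24. Nr1d1 was called higher at P60 in clusters 14, 17, 18 and 25, with log2 fold changes of 0.68, 1.28, 1.06 and 0.69. It had a higher estimate at P60 in 22 of 26 clusters, with a median of 0.40. Dbp was called higher in clusters 9 and 25 and had a higher estimate in 12 of 14. Clock was called lower in clusters 6, 22 and 24 and had a higher estimate in 2 of 22, and Per1 was called lower in clusters 10, 22 and 24 and had a higher estimate in 2 of 22. Cry2 was called lower in cluster 13. Per3 was called in none of 25 clusters, with a median of 0.32 and a higher estimate in 21. P21 cells had been assigned by the authors to the P60 clusters by the correlation of their expression, and the clusters share libraries.

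**Figure D3:**
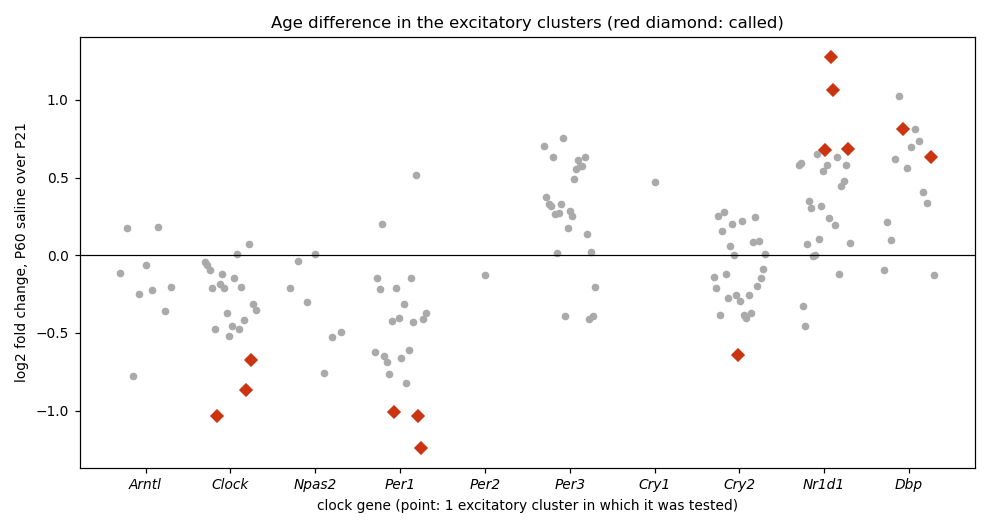
Log2 fold change of P60 saline over P21 (y axis) for each clock gene (x axis) in the excitatory clusters in which it was tested; each point is 1 cluster and red diamonds are called. Most points of Nr1d1, Dbp and Per3 lie above 0, and most of Clock and Per1 below 0.

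Cocaine and saline were compared within each time point in a fit of all 12 P60 libraries. None of 116 tests of a clock gene was called, against 0.131% of the tests over all genes. At an unadjusted p below 0.05 there were 4, beside 4.90% of all genes, the lowest adjusted p was 0.734 by edgeR, and DESeq2 called none. A cocaine by time point interaction was called in 0 of 32 tests (0.0138% of all genes), with 0 at an unadjusted p below 0.05 (4.56% of all genes) and none by DESeq2. The further clock genes gave 0 of 256 cocaine tests.

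The estimates ranged over the classes and time points in which each gene was tested. Arntl and Npas2, tested in excitatory neurons alone, gave log2 fold changes of cocaine over saline from −0.12 to 0.18 and from −0.20 to 0.08. Clock gave −0.92 to 0.39, Cry1 −0.75 to 0.84, Cry2 −0.66 to 1.07, Per2 −1.49 to 0.54 and Per3 −1.23 to 0.56. Per1 gave −0.46 to 2.08, where the highest value came from inhibitory neurons in maintenance, in which saline libraries 2 and 3 held 1 and 0 UMIs of it. Nr1d1 gave −1.82 to 0.28 and Dbp −2.49 to 0.48.

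The lowest estimates of Dbp and of Nr1d1 were those of endothelial cells at 48 h. Dbp lay at 65.8 and 121.2 CPM in saline libraries 5 and 7 and at 14.5 and 15.8 CPM in cocaine libraries 6 and 8 (log2 fold change −2.49, SE 0.74, unadjusted p = 0.0138 and adjusted p = 0.734 by edgeR). Nr1d1 lay at 92.0 and 118.8 CPM in saline and at 21.1 and 33.3 CPM in cocaine (−1.82, SE 0.89, adjusted p = 0.895 by edgeR). Treatments did not overlap for either gene at 48 h. In a fit of the 4 libraries of 48 h alone both were called, with adjusted p of 0.00107 for Dbp and 0.000769 for Nr1d1 by edgeR. The shares of all genes without overlap, or called in that fit, are not given here. In the fit of all 12 libraries 2 of 10057 genes were called in endothelial cells at 48 h.

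In endothelial cells these genes split the libraries at all 3 time points by whether the library number was odd or even. Endothelial Nr1d1 was 77.2, 107.0, 92.0, 118.8, 139.1 and 187.9 CPM in libraries 1, 3, 5, 7, 9 and 11. It was 37.7, 19.2, 21.1, 33.3, 73.4 and 71.2 CPM in libraries 2, 4, 6, 8, 10 and 12. Every odd library lay above every even one. The split was noticed after the data were seen, and the share of all genes that split in this way is not given here. Endothelial Dbp was 77.2, 101.0, 65.8, 121.2, 94.3 and 108.2 CPM in the odd libraries. It was 40.0, 29.4, 14.5, 15.8, 72.7 and 63.8 CPM in the even libraries, and the odd library was the higher one in 6 of 6 consecutive pairs, although the ranges met.

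At 48 h both saline libraries have odd and both cocaine libraries even numbers, so treatment and this split cannot be told apart there. In maintenance and at 15 days each treatment holds an odd and an even library, and the cocaine minus saline estimates were −0.50 and −0.24 for Nr1d1 and −0.35 and −0.02 for Dbp. Of the 6 saline libraries in the comparison with P21, 4 have odd numbers. What the library numbers stand for is not given in the sources used here.

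The other endothelial clock genes lay on either side of this split or on neither. The odd library was higher in 5 of 6 pairs for Per3, Cry2, Nr1d2, Tef, Hlf and Gm129, and the even library in 5 of 6 for Per2 and Usp2. These counts too are given without the share over all endothelial genes. Clock was higher in the odd library in 3 of 6 pairs, Arntl and Per1 in 4 and Cry1 in 2. In excitatory neurons the even library was higher in 5 of 6 pairs for Nr1d1, Dbp, Per1, Per3 and Cry2, with overlapping ranges, and in newly formed oligodendrocytes in 5 of 5 for Nr1d1. In oligodendrocyte precursors Nr1d1 ran the same way as in endothelial cells, with the odd library higher in 5 of 5 pairs (35.9–59.98 CPM in odd and 23.1–48.8 CPM in even libraries), and Dbp was higher in the odd library in 2 of 5. In the remaining classes the odd library was higher in 2 to 3 pairs for Nr1d1 and in 1 to 4 for Dbp. Other genes split every pair as well. Many genes and classes were searched, so some such splits would arise by chance, and their share over all genes is not given here. The odd library was higher in 6 of 6 pairs for Arntl and Nr1d2 in inhibitory neurons. It was higher in 5 of 5 for Cry2 in newly formed oligodendrocytes and for Per2 in astrocytes. In astrocytes the even library was higher in 5 of 5 for Usp2 and for the summed glucocorticoid target and immediate early genes.

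Other values moved with the split in endothelial cells, and their part in it was not tested. Endothelial markers were higher in the even library in 6 of 6 pairs (8411–11190 CPM in odd and 10042–12909 CPM in even libraries) and oligodendrocyte markers in 5 of 6, while astrocyte markers were higher in the odd library in 4 of 6 and excitatory and microglial markers in 3 of 6. The 7 glucocorticoid target genes summed to 1389–1721 CPM in the odd and 1805–2065 CPM in the even libraries. The ranges of the overlapping genes were nearly the same on both sides, with Thra at 65.0–113.5 CPM in odd and 69.7–110.03 CPM in even libraries and Sphk2 at 10.9–18.0 and 10.7–17.9 CPM.

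**Figure D4:**
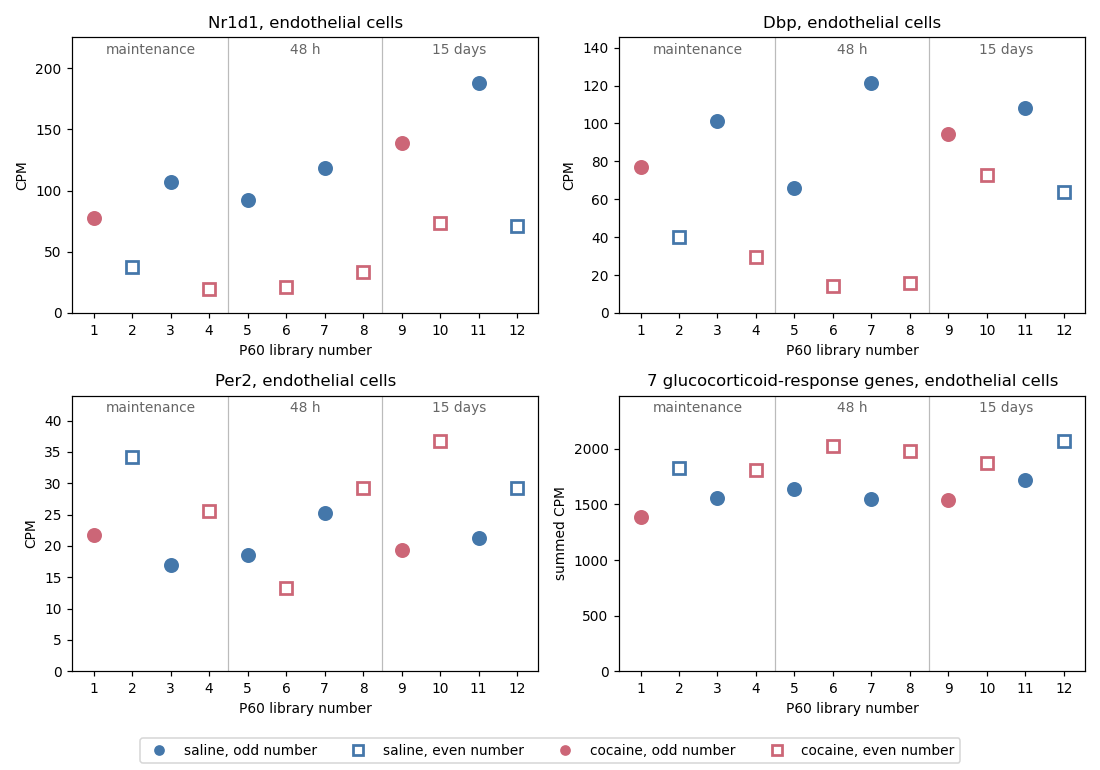
Levels of Nr1d1, Dbp, Per2 and the summed 7 glucocorticoid target genes in endothelial cells in CPM (y axes, linear, from 0) by P60 library number (x axes, with the time points marked). Each mark is 1 library, blue for saline and red for cocaine, a filled circle for an odd and an open square for an even number. Nr1d1 and Dbp alternate between neighbouring libraries, high in odd and low in even numbers.

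The 3 other estimates with an unadjusted p below 0.05 included Per3 in endothelial cells at 48 h, at 121.4 and 120.0 CPM in saline and 83.4 and 75.2 CPM in cocaine (log2 fold change −0.54, adjusted p = 0.734 by edgeR), which has the same odd and even numbers. Per2 in excitatory neurons in maintenance was at 13.2 and 7.7 CPM in saline and 14.0 and 15.6 CPM in cocaine (0.54, adjusted p = 0.735 by edgeR). Dbp in astrocytes at 48 h gave −0.78 (adjusted p = 0.994 by edgeR). None passed after adjustment.

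The time points, each averaged over both treatments, came from separate cohorts, and the 15-day libraries also held the most cells and UMIs. Their median UMIs per cell, 8771.5 to 11334.5, overlapped those of the earlier libraries, 3426.0 to 10962.0. In the paper catheters were implanted at P60, before self-administration and withdrawal, while the labels give 8 to 10 weeks for every adult group. Withdrawal time, age, cohort, UMIs per library and the time of day of killing, which is not given, cannot be told apart. Of 126 tests of a clock gene between time points 1 was called, against 5.46% of the tests over all genes, and 31 of the 126 had an unadjusted p below 0.05, beside 17.8% over all genes. The called gene was Cry1 in excitatory neurons, where 1.97% of all genes were called between 15 days and maintenance. It lay at 8.0, 12.5, 6.9 and 12.3 CPM in libraries 1 to 4, at 9.2, 10.2, 8.3 and 8.6 CPM in libraries 5 to 8, and at 6.7, 6.5, 6.2 and 6.0 CPM in libraries 9 to 12. Every 15-day library lay below every earlier one, and the log2 fold change from maintenance was −0.64 (SE 0.17, adjusted p = 0.0427 by edgeR). The call was kept without library 1, 3, 6 or 8 and lost when any other library was left out, with adjusted p up to 0.188, and it was not made in saline libraries alone.

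Per2 in excitatory neurons had a like difference, from 12.6 CPM in maintenance to 8.97 CPM at 15 days (log2 fold change −0.47, adjusted p = 0.0638 by edgeR), and did not pass. In endothelial cells 3 of 8 tested genes passed the adjusted p at 15 days against 48 h without reaching 1.5-fold, where 12.3% of all genes passed it at any fold. Per1 had 76.1 ± 8.77 CPM at 48 h and 114.4 ± 10.8 CPM at 15 days (0.52, adjusted p = 0.00658 by edgeR), Per3 121.4, 83.4, 120.0 and 75.2 CPM in libraries 5 to 8 and a mean of 148.3 ± 11.6 CPM at 15 days (0.55, adjusted p = 0.00701 by edgeR) and Cry2 34.1 ± 4.67 and 50.3 ± 5.57 CPM (0.52, adjusted p = 0.0308 by edgeR). Per1, 1 of 8 past the adjusted p in that comparison (14.0% of all genes), was also higher than in maintenance, at 80.9 ± 9.82 CPM (0.46, adjusted p = 0.0159 by edgeR). Excitatory, astrocyte and microglial markers were higher in these endothelial cells at 15 days as well, those of oligodendrocytes overlapped between the time points, and their part was not tested. Excitatory markers summed to 41.0–47.0 CPM in maintenance, 104.8–245.4 CPM at 48 h and 326.9–479.1 CPM at 15 days, and astrocyte markers to 63.0–96.5, 45.6–76.0 and 104.7–219.3 CPM. Microglial markers summed to 22.4–56.9 CPM at 15 days and to 21.6 CPM or less before, and oligodendrocyte markers to 449–555, 431–698 and 462–626 CPM in the same order of time points. The 10 immediate early genes summed to 12083–14344 CPM in maintenance, 11652–15427 CPM at 48 h and 16589–19770 CPM at 15 days.

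The other estimates of the 10 genes between time points did not pass. Per1 and Per3 in inhibitory neurons gave 2.04 and 1.53 at 15 days over maintenance (adjusted p = 0.0563 and 0.0625 by edgeR), with means in maintenance of 6.93 and 12.6 CPM. Over all classes and pairs of time points, the estimates above included, Arntl gave −0.19 to −0.09, Npas2 −0.40 to −0.18, Clock −0.29 to 0.10, Cry1 −0.64 to 0.01, Cry2 −0.27 to 1.14, Per1 −1.26 to 2.04, Per2 −0.58 to 0.22, Per3 −0.64 to 1.53, Nr1d1 −0.72 to 1.12 and Dbp −0.80 to 1.14. Of the further clock genes 12 were called higher and 3 lower in 285 tests (5.46% of tests over all genes), 8 of the 12 at 15 days against 48 h. Bhlhe41 and Usp2, a ubiquitin protease gene, were higher at 15 days in endothelial cells against both earlier time points, with Usp2 at 27.5 CPM against 5.65 CPM in maintenance and 10.6 CPM at 48 h. Against 48 h, Rorb and Usp2 were higher in inhibitory neurons, Tef in the precursors, Tef and Hlf in microglia and Rora in mature oligodendrocytes, and Bhlhe41 was lower in microglia. Against maintenance, Rora and Hlf were higher in mature oligodendrocytes, and Bhlhe40 and Rorb were lower in astrocytes.

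**Figure D5:**
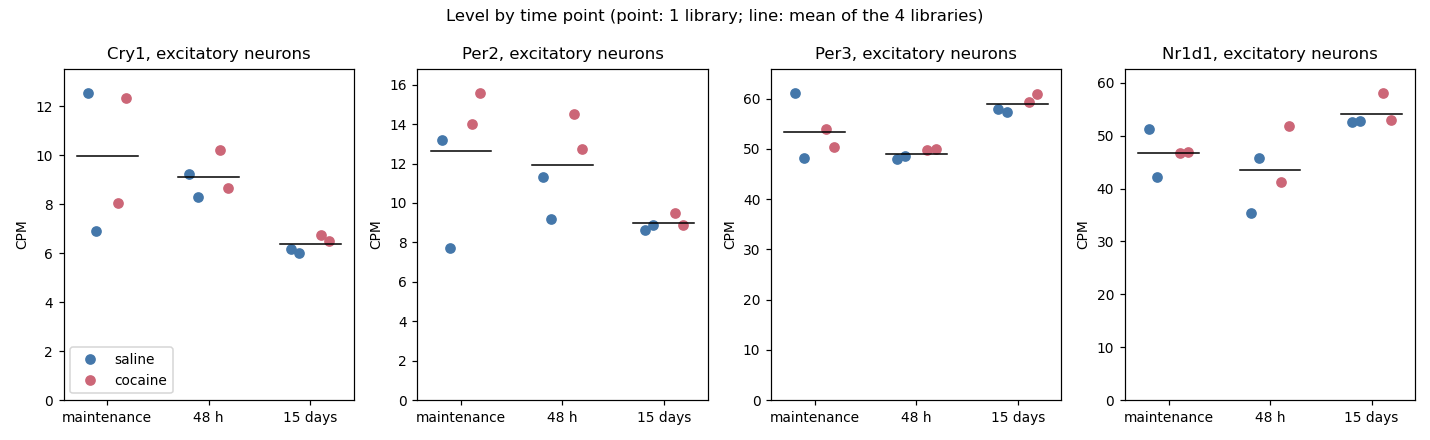
Levels of Cry1, Per2, Per3 and Nr1d1 in excitatory neurons in CPM (y axes, linear, from 0) at the 3 time points (x axes); each point is 1 library, blue for saline and red for cocaine, and the line is the mean of 4 libraries. Cry1 is lowest in the 4 libraries of 15 days, which do not overlap those of the earlier time points.

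Over the 12 P60 libraries of excitatory neurons, the genes whose log2(CPM + 1) was most like that of each clock gene were sought among 7998 genes of at least 10 CPM, by Pearson's r and as a description. For Per2 these were Acin1 (r = 0.976), Kbtbd2 and Aff4, for Cry2 Slc25a27 (0.964), Trim44 and Hrh3, and for Nr1d1 Gapdh (0.959), Dos and Gnao1. Per3 had Btbd6 (0.942), Phf17 and Gne, Npas2 had Gm11744 (0.937), Acvr1c and Ube2l6, and Dbp had Ncoa7 (0.911), Pcsk1n and Rxrb. Per1 had Evi5 (0.908), Ddb1 and Rnf10, Arntl had Cul4a (0.892), Bbip1 and Ppp1cb, and Clock had Gm10736 (0.887), Olfm1 and Zmym2. Cry1 was under 10 CPM and was left out. Among the clock genes themselves Nr1d1 and Cry2 were most alike (r = 0.937), followed by Per1 with Cry2 (0.816) and Arntl with Npas2 (0.813), while Arntl and Nr1d1 gave −0.51. All of these values share the same libraries and their depths.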

How the data were processed

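Per the methods, the authors mapped reads to mm9 (NCBIM37) with Cell Ranger, and the deposited matrices hold raw UMI counts without normalization. The deposited table of cells gives the class and cluster that the authors made with Seurat. Cells were retained as there, and no further doublet step was run. The class used here is that of the cluster. It matched the deposited class column for 14433 of 14443 excitatory cells at P60 and for 5658 of 5934 at P21. Leaving out 13 mitochondrial genes and 143 genes of ribosomal proteins kept 25989 genes. Counts were summed per library and class, or per excitatory cluster (pandas 2.3.3, numpy 2.4.6 and scipy 1.17.1 under python 3.11.15).

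Quasi-likelihood tests came from edgeR 4.0.16 (R 4.3.3), after filterByExpr and TMM, with robust dispersions and at least 2 libraries in a group, and p-values were adjusted over all genes of a class (Benjamini-Hochberg). DESeq2 1.42.0 was an alternative. The fits were also run on simulated counts with known changes, and the outcome is not given here. The labels do not say whether the pools of 1 group came from separate cohorts or days, so p-values measure the spread between these libraries; cells were not replicates. The named genes were the 10 clock genes wherever they were tested and, of the further clock genes, those called; where many estimates did not pass, their range is given. The members and the gene lists were chosen with earlier results of these data known. Gene positions come from the GENCODE annotation of NCBIM37 and promoter windows from RefSeq.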

Additional observations from a re-analysis of the deposited data

Results flagged for a closer look

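In 53 sets of 5 or 6 saline P60 libraries, each for a clock gene in a class with a mean of at least 10 CPM, the highest or the lowest library was set against the rest, and 4 sets had a library far from the others; chance gives about 1 in 20. Nr1d1 in astrocytes was 202.79 CPM in library 7 (48 h; 36 UMIs), with the next at 143.94 CPM. Clock in microglia was 46.06 CPM in library 11 (15 days; 10 UMIs), with the next at 19.92 CPM. Per1 in newly formed oligodendrocytes was 0.0 CPM in library 2 (maintenance; 0 UMIs in 11 cells, where 1 UMI is worth 15.99 CPM), with the next at 24.45 CPM. Clock in mature oligodendrocytes was 30.03 CPM in library 3 (maintenance; 4 UMIs), with the next at 16.55 CPM.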

How the results depend on the processing

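The 9 calls between P21 and P60 saline became 5 to 9 when 1 library was left out (5 without saline library 7 or without P21 library 3), and 4 when the saline libraries of the maintenance phase alone were used. In excitatory clusters the 13 calls became 4 with at least 30 cells per library, 3 of them among the 13. For cocaine against saline, the fit of the libraries of 1 time point alone called 2, against 0. Between time points the 1 call became 5 with no fold cutoff, 6 with no filter on low counts and 0 in saline libraries alone. It became 4 with the odd or even library number as a term, an alternative added after the data were seen. The shares of all genes called over all classes under the alternatives named here are not given. Leaving out 1 P60 library left its group with 1 library in this comparison, and counts from those fits are not given here. Where a fit left a group with 1 library, that library was assumed to vary like the others. With P21 libraries 2 and 3 summed, an alternative also added after the data were seen, 6 calls were made between the ages. Levels under the alternatives were compared only in the class with the highest mean of each gene. None of these levels moved by more than the spread between libraries. Dbp was highest in astrocytes and not in endothelial cells when mitochondrial and ribosomal protein genes were kept. Another scaling moved the median log2 fold change of all genes by at most 0.073. The labels give no replicate numbers that tie libraries of different groups, so no fit with a replicate block was made. Low UMI totals limit the glial classes: Per3 in mature oligodendrocytes rests on 39 UMIs at P21.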
